A study of Mus musculus with 4 samples.

Results

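Immediate early genes are the first genes that a cell transcribes after a stimulus, from regulators that are already in place and without new protein synthesis. Kinases such as ERK, p38 and protein kinase A activate SRF with its partner ELK1 and CREB, which start transcription, and the short-lived mRNAs then encode transcription factors and phosphatases that shape the later response. In brown adipose tissue (BAT), noradrenaline acting on β-adrenergic receptors is a known inducer of several of them through cAMP. The genes described here are 10 members of this class: the AP-1 subunits Fos, Fosb, Jun and Junb, the zinc finger factors Egr1 and Egr2, the response genes Ier2 and Ier3, the nuclear receptor Nr4a1 and the phosphatase Dusp1. The rule takes them by symbol and not by their values, and they are 10 of the 20145 genes that have a named probe on the array.

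Their mRNA was measured in BAT of male Tg mice, 8 weeks of age, of the C57/BL6N strain as the study spells it. Both groups carried the transgene Fv2E-PERK, in which the kinase domain of PERK is fused to an artificial dimerization domain and placed under the mouse aP2 (Fabp4) promoter. The drug AP20187 (AP) dimerizes the fusion protein and thereby switches on phosphorylation of eIF2α, the start of the integrated stress response (ISR). According to the study, the transgene is active in white and brown adipose tissue and also in monocytes and macrophages, so the response need not be that of brown adipocytes alone. Vehicle, a mix of ethanol, PEG-400 and Tween-20 in water, was given to 2 mice and AP to 2 mice by intraperitoneal injection, and BAT was taken 12 h later. The mice are named here by group and replicate number, as vehicle 1, vehicle 2, AP 1 and AP 2. The labels give the AP dose as 1 ng/g, whereas the study's text gives a higher one. No wild-type array was analysed here, so the comparison is of AP with vehicle among Tg mice only. Each mouse is 1 one-color Agilent SurePrint G3 Mouse array, and all 4 arrays were on 1 slide and in 1 scan. Of the spots, 46.8% and 49.0% were well above background in the vehicle-treated mice and 46.4% in each AP-treated mouse.

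A level is given as the log2 signal of a probe minus the log2 of the signal below which 75% of the array's non-control spots lay. A level of 0 is therefore that signal, and a difference of 1 is 2-fold. Each of the 10 genes had 1 probe, and every probe was well above background on all 4 arrays, with 0 spots flagged and 0 saturated. The signals lay between 13.7 and 4831, and the scanner's own error was 10.0 to 17.0% of the signal. The probe of Fos is printed in 10 spots per array, which differed from each other with an SD of 0.0712, 0.101, 0.0693 and 0.0780 on the log2 scale in vehicle 1, vehicle 2, AP 1 and AP 2. In bulk tissue, fewer cells of a type and less RNA per cell cannot be told apart. As a check of the labels, the ISR target Trib3, a pseudokinase, had levels of 2.78 and 2.33 with vehicle but of 6.26 and 8.01 with AP. The transcription factor gene Ddit3 (CHOP) was at 2.18 and 1.86 with vehicle and at 3.03 and 4.22 with AP. Both genes were higher in each AP-treated mouse than in each vehicle-treated mouse, and highest in AP 2.

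None of the 10 genes differed between the groups by more than the spread between mice allows to be called. At an adjusted p of 0.05 in limma, 0 of the 10 differed between AP and vehicle, beside 0% of the 24973 probes tested, and the smallest adjusted p of any probe was 0.80. At an unadjusted p of 0.05, limma called 0 of the 10 against 6.07% of all probes. The methods' t-test also called 0 of the 10, against 1478 of the 24973 probes. The groups of 2 mice did not overlap for 1 gene that was lower with AP, Jun, against 20.4% of probes, and for 0 genes that were higher with AP, against 18.0% of probes. The median log2 fold change of the 10 was -0.39, with 2 higher and 8 lower, beside a median of -0.01 over all probes. That median rested on single mice. It was -0.042 without vehicle 1 (4 higher, 6 lower) and -0.10 without AP 1 (5 higher, 5 lower). With 2 mice against 2, an exact two-sided permutation test cannot give a p under 0.333, and the confidence intervals show how wide a change remains possible.

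**Figure D1:**
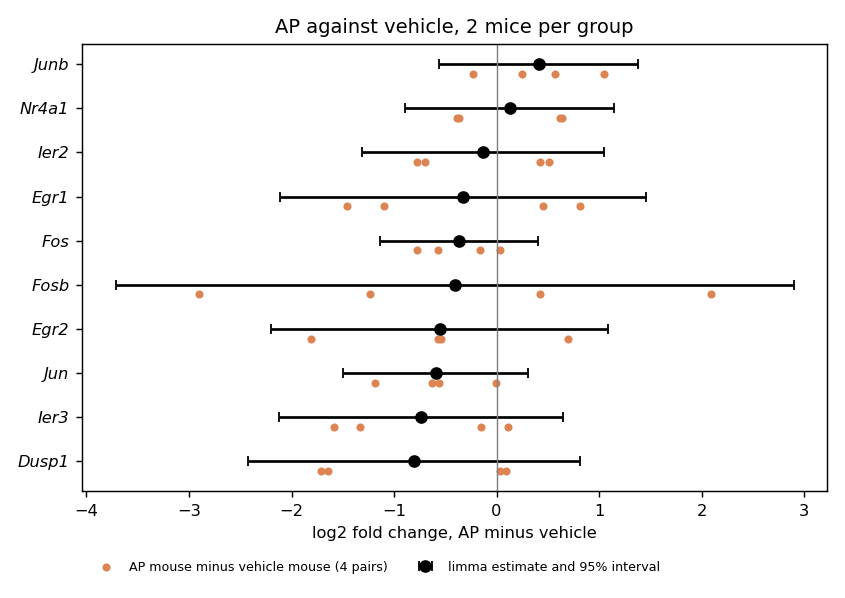
Log2 fold change of AP over vehicle (x axis) for the 10 immediate early genes. Black points and bars are the limma estimate and its 95% confidence interval with 2 mice per group, and orange points are the 4 differences between an AP-treated and a vehicle-treated mouse. Every interval includes 0, and the interval of Fosb is the widest, from -3.71 to 2.90.

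Mice of the same group differed from each other in most of these genes. For 7 of the 10, the mice of at least 1 group were 2-fold or more apart, against 15.5% of all probes and 12.8% of the 12138 named genes that were well above background on all 4 arrays. In all 10, the difference between the group means was smaller than the larger of the differences within a group, which held for 74.6% of probes. The vehicle pair was at least 2-fold apart for 3 genes, against 9.03% of probes, and the AP pair for 6 genes, against 8.42% of probes. Correction of the background by normexp, with 50 added to each corrected signal, left 4 of the 10 at least 2-fold apart, beside 5.03% of probes. The added 50 draws dim signals together on the log2 scale, and its part was not separated from that of the correction. With normexp the vehicle pair was at least 2-fold apart for Fosb and Ier3, 2 genes, beside 3.53% of probes. The AP pair was so for Egr1 and Dusp1, 2 genes, beside 2.07%. The genes that differed in the vehicle pair were in part other genes than those that differed in the AP pair, and are described by role.

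**Figure D2:**
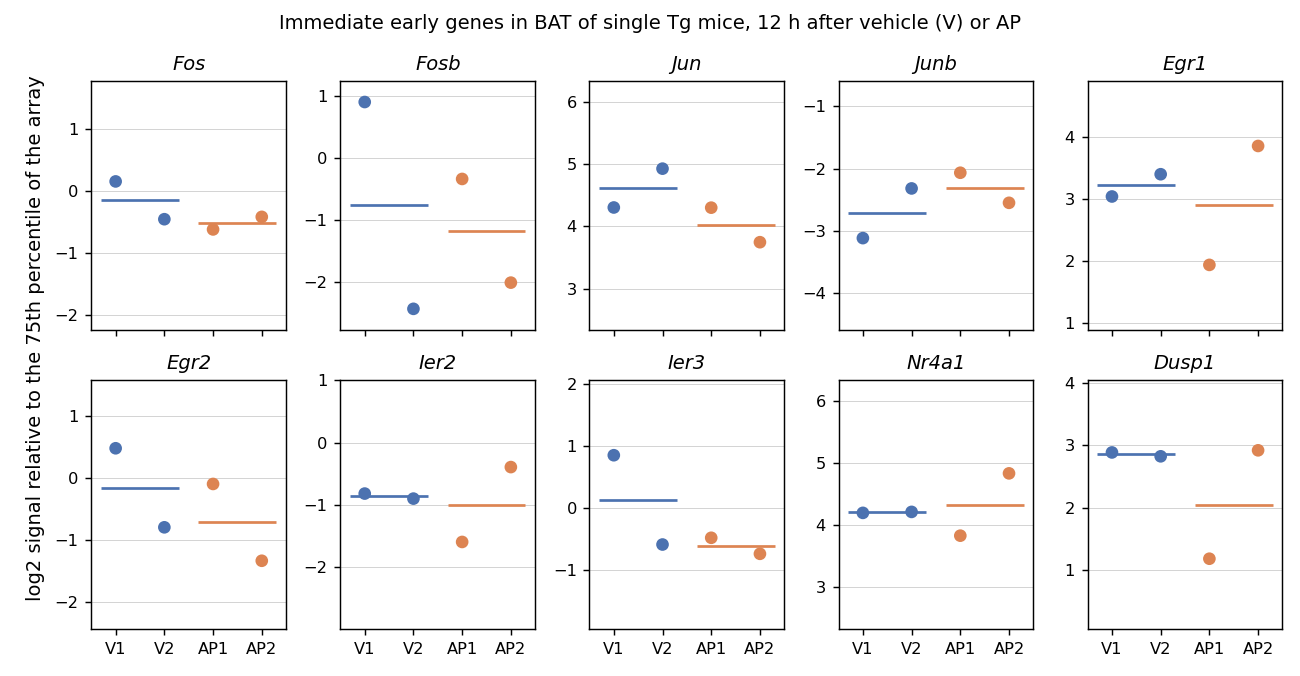
Level of each immediate early gene in each mouse, as log2 signal minus that of the array's 75th percentile (y axis, the same span in each panel). V1 and V2 are the vehicle-treated mice (blue) and AP1 and AP2 the AP-treated mice (orange), and bars are group means. Egr1, Ier2, Nr4a1 and Dusp1 lay close together in the vehicle pair and apart in the AP pair, with AP1 the lower.

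Fos and Fosb encode partners of the Jun proteins in AP-1, the dimeric factor that binds the TPA response element. Fos was at 0.16 in vehicle 1, -0.45 in vehicle 2, -0.62 in AP 1 and -0.41 in AP 2. Vehicle 1 was the high mouse, the other three lay close together, and the groups overlapped. Its log2 fold change was -0.37 (SE 0.29, 95% confidence interval -1.13 to 0.40, limma adjusted p 0.827). It was -0.063 without vehicle 1, -0.67 without vehicle 2 and -0.22 with normexp.

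Fosb varied the most of the 10 genes. Its level was 0.90 in vehicle 1 but -2.43 in vehicle 2, a difference of 10.0-fold between mice that had the same treatment (3.48-fold with normexp). In the AP-treated mice it was -0.34 in AP 1 and -2.0 in AP 2, 3.18-fold apart. In each group replicate 1 was the higher, and both AP-treated mice lay between the vehicle-treated mice. The log2 fold change of -0.41 (SE 1.25, limma adjusted p 0.955) turned to 1.25 without vehicle 1 and to 0.43 without AP 2.

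Jun, the main partner of the Fos proteins, was at 4.30 and 4.93 with vehicle and at 4.30 and 3.75 with AP. AP 2 was the lowest mouse and vehicle 2 the highest, and vehicle 1 and AP 1 were equal to the second decimal, so the groups were barely apart. The log2 fold change was -0.59 (SE 0.34, 95% confidence interval -1.49 to 0.31, limma adjusted p 0.801), and it was -0.90 without vehicle 1, -0.28 without vehicle 2, -0.87 without AP 1 and -0.31 without AP 2. Junb, which encodes a subunit with weaker transactivation than Jun, was the gene with the dimmest probe of the 10. It was at -3.12 and -2.32 with vehicle and at -2.07 and -2.55 with AP. Here vehicle 1 was the lowest mouse and AP 1 the highest, with overlap of the groups and a log2 fold change of 0.41 (SE 0.37, limma adjusted p 0.838), which was 0.010 without vehicle 1, 0.81 without vehicle 2, 0.17 without AP 1 and 0.65 without AP 2. Neither Jun nor Junb reached 2-fold within a group. In the log2 table deposited by the authors, however, the vehicle pair was 2.08-fold apart for Junb.

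Egr1 encodes a zinc finger factor that is induced by ERK through SRF and ELK1. Its level was 3.04 and 3.39 with vehicle, but 1.94 in AP 1 and 3.85 in AP 2. The AP-treated mice were 3.76-fold apart and enclosed both vehicle-treated mice. The log2 fold change was -0.32 (SE 0.67, 95% confidence interval -2.11 to 1.46, limma adjusted p 0.930), and without AP 1 it was 0.63. Egr2, a related factor known from myelination and early adipogenesis, had levels of 0.48 and -0.79 with vehicle and of -0.10 and -1.33 with AP. Replicate 1 was the higher mouse in both groups, by 2.41-fold with vehicle and 2.35-fold with AP. Its log2 fold change of -0.56 (SE 0.62, limma adjusted p 0.864) became 0.080 without vehicle 1 and 0.062 without AP 2.

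Ier2 encodes a small nuclear protein, and Ier3 a stress-inducible regulator of survival. Ier2 was at -0.82 and -0.90 with vehicle, at -1.60 in AP 1 and at -0.39 in AP 2. The vehicle pair lay together and the AP pair enclosed it, 2.30-fold apart. The log2 fold change of Ier2 was -0.14 (SE 0.45, limma adjusted p 0.959), and 0.47 without AP 1. It was -0.037 with normexp, -0.051 with scaling to the median of each array and -0.30 in the deposited log2 table. Ier3 was at 0.85 in vehicle 1, -0.58 in vehicle 2, -0.47 in AP 1 and -0.73 in AP 2. Only vehicle 1 was high, 2.70-fold above vehicle 2, and the other three mice lay close together, as they did for Fos. The log2 fold change of -0.74 (SE 0.52, limma adjusted p 0.817) was -0.021 without vehicle 1, -1.46 without vehicle 2 and -0.44 with normexp.

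Nr4a1 encodes Nur77, an orphan nuclear receptor that β-adrenergic signalling induces in brown fat. It was at 4.20 and 4.21 with vehicle, at 3.83 in AP 1 and at 4.83 in AP 2. The vehicle-treated mice were nearly equal, and the AP-treated mice lay on either side of them, 2.0-fold apart. The log2 fold change was 0.13 (SE 0.39, limma adjusted p 0.955), and it turned to -0.37 without AP 2 and to -0.035 in the deposited log2 table. Dusp1 encodes MKP-1, the phosphatase that switches off p38, JNK and ERK. It was at 2.89 and 2.82 with vehicle, at 1.18 in AP 1 and at 2.92 in AP 2. AP 1 alone was low, and AP 2 lay just above the vehicle pair, with 3.35-fold between the AP-treated mice. Its log2 fold change of -0.81 (SE 0.61, 95% confidence interval -2.42 to 0.81, limma adjusted p 0.822) was the largest of the 10 in size, and it was 0.065 without AP 1.

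Of the 10 genes, 6 showed 1 of 2 patterns, which were described after their values were seen and therefore have no test. Fos, Jun, Junb and Ier3 showed neither. Egr1, Ier2, Nr4a1 and Dusp1 were at least 2-fold higher in AP 2 than in AP 1, which was so for 5.35% of probes, with the vehicle pair less than 2-fold apart. Fosb and Egr2 were at least 2-fold higher in AP 1 than in AP 2, as were 3.06% of probes. Fosb, Egr2 and Ier3 were at least 2-fold higher in vehicle 1 than in vehicle 2, against 4.09% of probes. With normexp the AP pair was 3.33-fold apart for Egr1 and 2.84-fold for Dusp1, but 1.93-fold for Nr4a1, 1.52-fold for Ier2, 1.65-fold for Fosb and 1.56-fold for Egr2, with the higher mouse as before. Nr4a1 was also under 2-fold with quantile normalization and with scaling to the median. The opposite order in the vehicle pair, found for 4.93% of probes, was seen for 0 of the 10. In the deposited log2 table Junb had it, 2.08-fold higher in vehicle 2 than in vehicle 1. Vehicle 1 and AP 2 each held the highest level of 4 genes, beside 28.3% and 21.7% of the named genes. AP 1 held the lowest level of 5 genes, beside 23.9% of the named genes, and vehicle 2 that of 1 gene, beside 37.0%. ISR genes also differed between the AP-treated mice. Of 9 on the list, 6 were at least 2-fold higher in AP 2 than in AP 1, 8 were highest in AP 2, and 7 (77.8%) were at least 2-fold apart in a pair. The part of the ISR in the levels of the immediate early genes was not tested.

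**Figure D3:**
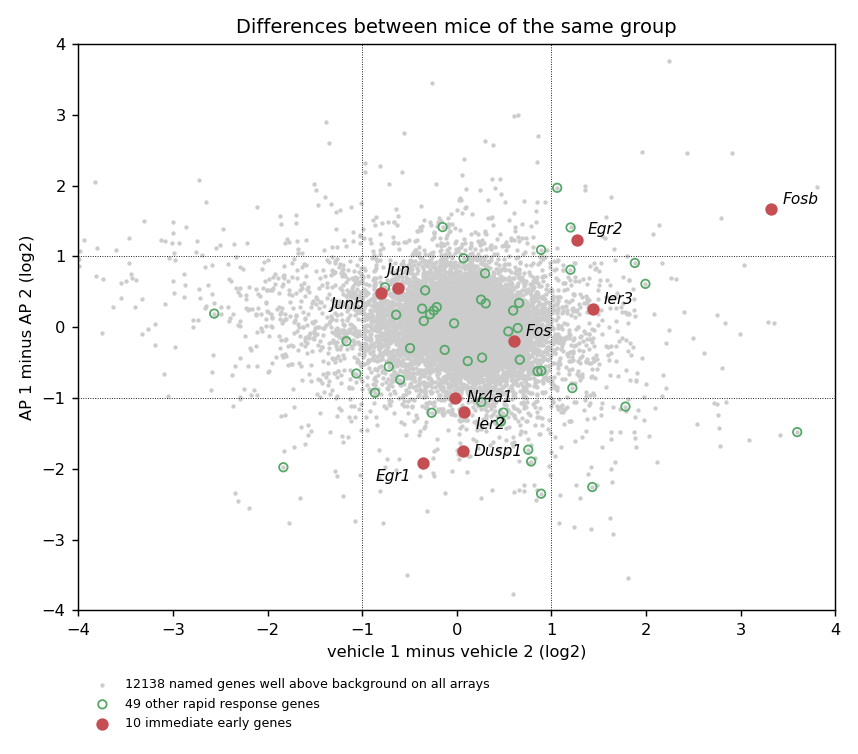
Difference between the mice of a group on the log2 scale, vehicle 1 minus vehicle 2 (x axis) against AP 1 minus AP 2 (y axis), 1 point per gene. Red points are the 10 immediate early genes, green circles the other rapid response genes and grey points the 12138 named genes well above background on all arrays, of which 39 lie outside the axes, and dotted lines mark 2-fold. Fosb and Egr2 lie at the upper right, whereas Egr1, Dusp1, Ier2 and Nr4a1 lie at the bottom near the centre of the x axis.

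The promoters of Dusp1 and Nr4a1, from the pattern with AP 2 above AP 1, and of Fos, whose AP pair was close, are shown so that the cAMP response element (CRE) letters can be read beside these values. Each is the 250 bases before the annotated start, on the strand of the gene, from RefSeq with assembly GRCm38.p6. Capitals mark TGACG, the core of the CRE that CREB binds, or CGTCA, the same letters on the other strand. The windows are chr17:26508473-26508722 on the minus strand for Dusp1, chr12:85473640-85473889 on the plus strand for Fos and chr15:101266596-101266845 on the plus strand for Nr4a1.
Dusp1: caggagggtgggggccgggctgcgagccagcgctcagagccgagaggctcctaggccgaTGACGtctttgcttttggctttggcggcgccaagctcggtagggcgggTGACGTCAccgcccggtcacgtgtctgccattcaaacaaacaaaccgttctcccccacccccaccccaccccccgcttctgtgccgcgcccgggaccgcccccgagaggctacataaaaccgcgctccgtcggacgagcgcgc
Fos: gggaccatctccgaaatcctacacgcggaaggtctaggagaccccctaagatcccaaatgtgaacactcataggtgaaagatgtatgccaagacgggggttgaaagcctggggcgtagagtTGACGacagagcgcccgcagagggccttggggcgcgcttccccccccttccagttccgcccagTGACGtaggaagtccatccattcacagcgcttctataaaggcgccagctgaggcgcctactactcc
Nr4a1: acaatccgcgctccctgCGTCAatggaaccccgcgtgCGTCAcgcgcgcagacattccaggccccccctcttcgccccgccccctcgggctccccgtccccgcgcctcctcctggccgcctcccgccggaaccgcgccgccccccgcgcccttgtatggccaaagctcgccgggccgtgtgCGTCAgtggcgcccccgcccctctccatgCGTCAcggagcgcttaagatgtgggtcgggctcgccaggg
In Dusp1 the matches began 191, 143 and 140 bases before the start, and the last pair overlap as the full palindrome TGACGTCA. Fos held matches at 129 and 66 bases, and Nr4a1 at 233, 213, 69 and 40 bases before the start. TGACG on either strand was in 6 of the 8 immediate early genes counted (Dusp1, Egr2, Fos, Fosb, Junb and Nr4a1), and in 17.8% of all 32851 promoter windows of that length. The full TGACGTCA was in 1 of the 8, Dusp1, and in 1.55% of windows, and TATAAA on the gene's strand was in 1 of the 8, Fos, and in 7.59% of windows. Egr1 and Ier2 were not among the member windows counted, although their probes were named through RefSeq. The count of members left out the windows of 1 chromosome, whereas the share over all windows did not. The letters were thus present both in Dusp1 and Nr4a1, which differed between the AP-treated mice, and in Fos, which did not reach 2-fold. A match in letters does not show that a factor was bound.

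A wider list of 56 other rapid response genes was described in the same way, without a test between the lists. Of these, 50 were measured. Fosl1, Egr3, Egr4, Nr4a3, Dusp5 and Ptgs2 had no probe well above background on any array. Of the 50, 16 were higher and 34 lower with AP, with a median log2 fold change of -0.15, and 0 passed the adjusted threshold in limma. That median was -0.077 without AP 1, with 22 higher and 28 lower, -0.27 without vehicle 2 and -0.24 without AP 2. With scaling to the median of each array it was -0.067 (21 higher, 29 lower), and with normexp -0.092. In the deposited log2 table it was -0.31 (12 higher, 38 lower). At least 1 pair of mice was 2-fold or more apart for 23 of the 50 (46.0%), again against 15.5% of probes. In the AP pair, 12 of the 50 were at least 2-fold higher in AP 2, against 5.35% of probes, and 4 in AP 1, against 3.06%. The vehicle pair had 9 at least 2-fold higher in vehicle 1, against 4.09% of probes, and 4 in vehicle 2, against 4.93%.

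The listed genes with the largest fold changes were of mixed kinds. Dusp4, a nuclear ERK phosphatase, was at 1.28 and 0.39 with vehicle and at 1.11 and 3.46 with AP, so that AP 2 alone was high (log2 fold change 1.45, SE 0.86). Ppp1r15a, which encodes GADD34, the ISR-induced subunit that dephosphorylates eIF2α, was at 3.13 and 2.34 with vehicle and at 2.57 and 4.46 with AP, again with AP 2 alone high (0.78, SE 0.71). Myc was at -2.96 in vehicle 1 and between -0.53 and -0.33 in the other mice, which gave a log2 fold change of 1.24 (SE 0.87) from 1 low mouse.

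Klf9, a Krüppel-like factor induced by glucocorticoids, behaved otherwise. It was at 3.20 and 2.66 with vehicle and at 3.99 and 4.05 with AP, with groups apart and a log2 fold change of 1.09 (SE 0.27, unadjusted limma p 0.012, adjusted p 0.80). Btg1, an antiproliferative gene, was at 4.79 and 5.0 with vehicle and at 5.87 and 5.58 with AP on its brighter probe (log2 fold change 0.83, SE 0.23), whereas its other probe gave -0.25. Bhlhe40, a repressor tied to the clock, was at 3.72 and 2.50 with vehicle and at 1.77 and 2.63 with AP (-0.92, SE 0.53), and its groups overlapped.

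Atf3, an AP-1 family gene that is both a rapid response gene and an ISR target, did not follow Trib3 and Ddit3. It was at 0.11 and -0.15 with vehicle, -1.17 in AP 1 and -0.11 in AP 2, and its log2 fold change was -0.62 (SE 0.41, limma adjusted p 0.808). AP 1 was the low mouse and AP 2 lay within the vehicle pair, so the groups overlapped.

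The kinases, receptors and factors upstream of these genes were all measured, 36 of 36. With AP, 18 were higher and 18 lower, and 0 passed the adjusted threshold in limma. In the deposited log2 table, where the median of all probes was -0.17, 10 were higher and 26 lower. Without AP 1, 21 were higher and 15 lower. In at least 1 group, 7 of the 36 (19.4%) were 2-fold or more apart, near the 15.5% of all probes. Srf, the serum response factor, was at 1.70 and 1.10 with vehicle and at 1.33 and 2.47 with AP, which gave 0.50 (SE 0.47) as log2 fold change on its brighter probe, and the other probe gave -0.04. Elk1, whose product is the partner of SRF, was at 10.1 and 9.79 with vehicle and at 9.71 and 10.2 with AP. Its log2 fold change was -0.01. These levels, from 1 probe, were near those of Ucp1, which lay between 9.66 and 10.41. Whether the probe reads Elk1 alone was not tested. Creb1, the cAMP-responsive factor, was at -1.39 and -2.10 with vehicle and at -2.85 and -1.75 with AP, with overlap.

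The adrenergic receptors Adrb3 and Adrb1 had the lowest log2 fold changes of this list. Adrb3, the β3-adrenergic receptor of adipocytes, was at 6.80 and 6.70 with vehicle and at 5.33 and 5.77 with AP. The groups were apart, with a log2 fold change of -1.20 (SE 0.25, unadjusted limma p 0.0059, adjusted p 0.80), and the gene's other probe gave -1.29. Adrb1 was at 2.63 and 1.78 with vehicle and at 0.62 and 1.81 with AP, with overlap, and its probes gave -0.99 and -0.24. Map2k7, which encodes a kinase that activates JNK, was at -2.30 and -2.55 with vehicle and at 0.55 and -1.39 with AP. The groups were apart and the AP-treated mice were 3.84-fold from each other, with a log2 fold change of 2.0 (SE 0.68, unadjusted limma p 0.036, adjusted p 0.80).

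Of 12 phosphatases, inhibitors and corepressors that limit this response, 11 were measured and Spry2 was below the filter on dim probes. With AP, 6 were higher and 5 lower, the median log2 fold change was 0.090, and 0 passed the adjusted threshold in limma. The median was -0.25 without AP 2. Dusp7, an ERK phosphatase of the cytoplasm, was at 1.98 and 1.41 with vehicle and at 0.57 and 0.63 with AP, with groups apart (-1.10, SE 0.27, unadjusted limma p 0.012). Dusp16, a JNK phosphatase, was at 2.35 and 1.52 with vehicle and at 1.35 and 1.23 with AP (-0.65, SE 0.34). Dusp14 was at 0.70 and -1.51 with vehicle and at 0.86 and 1.08 with AP (1.37, SE 0.76), where vehicle 2 alone was low.

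The named genes whose profile over the 4 arrays was nearest to the mean of the 10 were Acsf3, Pgk1, Syne4, Rps23rg1 and Isca2, among 12128 genes. Their root mean square distances from it were 0.0131, 0.0142, 0.0176, 0.0182 and 0.0259 on the log2 scale. The mean profile itself, centred on 0, was 0.42 in vehicle 1, -0.08 in vehicle 2, -0.26 in AP 1 and -0.08 in AP 2. This likeness is to a mean of genes with different patterns, over 4 arrays.

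RNA of other cell types also differed from mouse to mouse. All 11 brown adipocyte markers were measured, with Cidea the brightest, and Ucp1, the uncoupling protein, was at 10.41, 9.66, 9.66 and 10.25 in vehicle 1, vehicle 2, AP 1 and AP 2. In units of the 75th percentile signal, their summed levels were 8839, 5833, 7191 and 8109. All 7 skeletal muscle markers were measured, with Myh4 the brightest, and all 7 were lowest in vehicle 1 and highest in vehicle 2. The summed muscle levels were 26.3, 472, 333 and 173, so vehicle 1, the mouse with high Fosb, Egr2 and Ier3, also had the least muscle RNA.
Some neutrophil markers were highest in AP 1, the mouse with low Egr1, Ier2, Nr4a1 and Dusp1. Of 5 neutrophil markers 4 were measured, with Csf3r the brightest, and 3 (S100a8, S100a9 and Retnlg) were highest in AP 1. S100a9, for example, was at 3.07, 2.47, 4.94 and 1.95. The summed neutrophil levels, led by Csf3r, were 92.8, 75.2, 97.9 and 107.1, without a peak in AP 1.
The other lists are given in the same order of mice. Of 8 macrophage markers 6 were measured, with Itgam the brightest and Cd163 not above background on any array, and their summed levels were 32.5, 40.3, 24.4 and 25.1. The lymphocyte and MHC class II list, measured for 4 of 8 with H2-Ab1 the brightest, had sums of 34.3, 97.9, 39.1 and 36.3, and Cd8a and Cd79a were among those above background on no array. Endothelial markers (6 of 6, Kdr the brightest) summed to 50.1, 64.6, 50.8 and 60.6.

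Fibroblast and preadipocyte markers (5 of 5, Dcn the brightest) summed to 109, 138, 103 and 101. Erythroid markers (3 of 4, Hba-a1 the brightest) summed to 517, 334, 252 and 364. The lymphoid and fibroblast sums were highest in vehicle 2, and the erythroid sum in vehicle 1. The macrophage and fibroblast sums were lower in both AP-treated mice than in both vehicle-treated mice. The mean log2 levels of these lists overlapped between the groups, however. For macrophage markers that mean was 1.19 in vehicle 1 and 1.35 in AP 1, and for fibroblast markers 2.75 and 2.88. All 6 measured macrophage markers had lower means with AP, with groups apart for 1. Of the 5 fibroblast and preadipocyte markers 4 did, with groups apart for 2. Over all probes, the groups were apart with AP lower for 20.4%. The part of muscle, neutrophil, lymphoid, macrophage, fibroblast and blood RNA in the levels of the immediate early genes was not tested. The barcode of each array ends in 2 numbers, taken here as its place on the slide. The first number was 1 for vehicle 1, 2 for vehicle 2 and 1 for both AP arrays. The second number was 1 for both vehicle arrays, 3 for AP 1 and 4 for AP 2. The place given by the second number and the treatment therefore cannot be told apart.

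**Figure D4:**
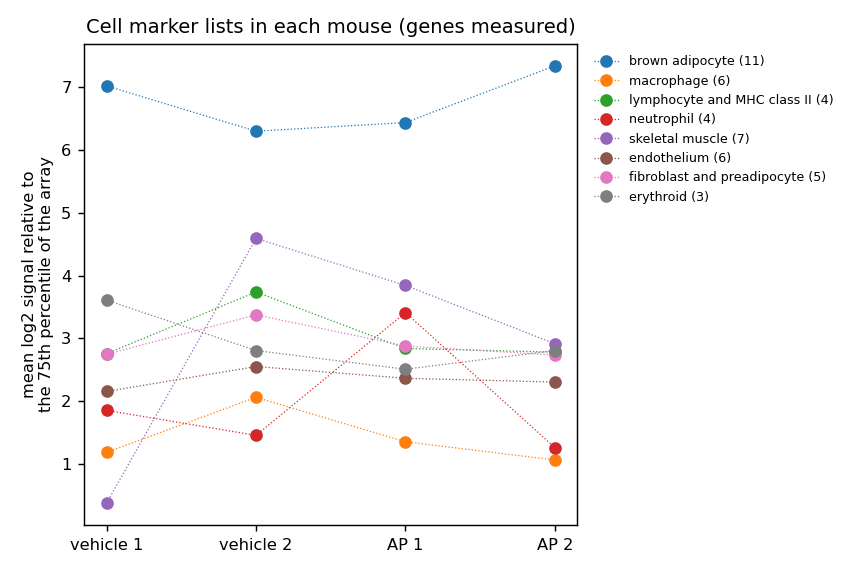
Mean level of each cell marker list in each mouse, as log2 signal minus that of the array's 75th percentile (y axis), with the number of genes measured in parentheses. Mice are to be compared within a list, and the dotted lines only join points of a list. Skeletal muscle runs from 0.38 in vehicle 1 to 4.59 in vehicle 2, and neutrophil markers reach 3.41 in AP 1.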

How the data were processed

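BAT of 2 vehicle-treated and 2 AP-treated Tg mice was measured on 1 array each. The authors deposited the intensity of each spot (processed, median and background signal) from Feature Extraction 10.7.1.1, on a linear scale and without normalization between arrays. They also deposited a log2 table of the same arrays, used as an alternative. Its differences between arrays followed those of the log2 intensities (r of at least 0.9998 over 24868 probes), its scaling and centring are unknown, and its column medians were -0.31 and -0.17 for vehicle and -0.44 and -0.32 for AP.

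From the intensities, log2 of the processed signal minus each array's 75th percentile was computed. Control spots and outliers were left out, spots of a probe were averaged, and probes well above background in both mice of a group were kept (24973 of 55681). AP was compared with vehicle in limma 3.58.1 (R 4.3.3; lmFit, then eBayes), with Benjamini-Hochberg adjustment over all probes kept and a threshold of 0.05. The number of arrays, 2 per group, limits the precision.

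Accessions were named through a RefSeq table of GRCm38.p6 (26582 probes, 20145 genes), which served for names alone, as the array design is annotated on another build. The brightest probe stood for a gene. Ccn1, Ccn2, Mrtfa, Mrtfb and Adgre1 were matched through older symbols. Named were the 10 genes, the 6 other rapid response genes and the 3 genes each of the upstream and feedback lists with the largest changes among those well above background on all arrays, Srf, Elk1 and Creb1, 3 ISR genes, the brightest and the undetected markers of each cell type (1 is not reported here), and the 5 nearest profiles. Genes named outside this rule, such as Ucp1, S100a9 and Dio2, were chosen after their values were seen. The members and lists were chosen with earlier results of these data known. The differences within the vehicle pair and within the AP pair had a correlation of r = -0.13 over probes. With 1 pair per group this cannot show whether the numbers pair the mice, which the labels do not say. Alternatives were other background corrections, normalizations and filters, a variance trend, the authors' table, a replicate block, the methods' t-test and leaving out each mouse.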

Additional observations from a re-analysis of the deposited data

How the results depend on the processing

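With 2 mice per group and 2 residual degrees of freedom, there were no calls to lose. In total, 0 probes passed the adjusted threshold in limma in the main analysis and in every alternative run, while 1003 to 2610 passed an unadjusted p of 0.05 (1515 in the main analysis), and 1478 did so in the methods' t-test. The replicate block called 0 probes (1226 at an unadjusted p of 0.05). In this balanced design it cannot change a fold change, so the median of -0.39 for the 10 genes is the same by construction. A crossed pairing, chosen after seeing the data, called 0 probes (1566 unadjusted). With all mice kept, 1 of the 10 genes turned direction, Nr4a1, which was at -0.035 in the authors' table, where the median of all probes moved to -0.17. There the median of the upstream list was -0.16. Leaving out single mice gave medians of -0.48 to -0.042 for the 10 genes, -0.27 to -0.08 for the other rapid response genes, -0.11 to 0.09 for the upstream list and -0.25 to 0.29 for the feedback list. It turned 6 of the 10 genes, with ranges of -2.07 to 1.25 for Fosb, -1.28 to 0.63 for Egr1, -1.19 to 0.080 for Egr2, -0.74 to 0.47 for Ier2, -0.37 to 0.63 for Nr4a1 and -1.68 to 0.065 for Dusp1. With normexp, 4 of the 10 genes were at least 2-fold apart within a group, beside 5.03% of probes. With quantile normalization, the median of each array and the authors' table, 6, 6 and 8 were. The shares of probes there were 15.2%, 15.5% and 16.1%. For this count, the alternatives were chosen after seeing the data. The causes were not tested. A block for slide or scan could not be fitted, since there was 1 of each.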

Other observations

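Of the 11 brown adipocyte markers, 2 (18.2%) were at least 2-fold apart between mice of the same group, near the 15.5% of all probes, and they are named here after their values were seen. Dio2, the deiodinase that adrenergic signalling induces in brown fat, was at 0.49 and 1.53 with vehicle, at -1.78 in AP 1 and at 3.33 in AP 2. The AP-treated mice were 34.7-fold apart and enclosed both vehicle-treated mice, the order that Egr1, Ier2, Nr4a1 and Dusp1 also had. Elovl3, a fatty acid elongase that is induced in brown fat in the cold, was at 6.08 in vehicle 1, -1.07 in vehicle 2, 3.52 in AP 1 and 5.76 in AP 2. Vehicle 2 alone was low, 142-fold below vehicle 1.

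Among the other rapid response genes, Maff, a small Maf factor, was at 3.22 in vehicle 1, -0.38 in vehicle 2, 0.20 in AP 1 and 1.69 in AP 2. Vehicle 1 was 12.1-fold above vehicle 2. Arc, a regulator of synaptic plasticity, was at 0.20 and -1.68 with vehicle and at -0.58 and -1.49 with AP, with replicate 1 the higher in both groups as for Fosb and Egr2. Per1, a core clock gene, had its highest level, 4.10, in AP 1 and its lowest, 2.13, in AP 2, with 3.60 and 2.54 in the vehicle-treated mice. Jund, the AP-1 subunit that is expressed without a stimulus, was at 4.72 and 4.85 with vehicle and at 3.86 and 4.18 with AP. Its groups were apart, with a log2 fold change of -0.76 (SE 0.23, unadjusted limma p 0.024, adjusted p 0.80).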
